A study of Mus musculus with 10 samples.

Results

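The chromatin around Sox2 was described from every ATAC-seq peak whose summit lay between 34.5 and 34.9 Mb on chromosome 3 of the mouse genome (GRCm38), a stretch of 400 kb. Peaks of the 10 libraries that overlapped by at least 1 bp were merged, which gave 42 regions around Sox2 out of 137454 regions in the whole series. They were chosen by position alone, and each is named here by the distance in kb of its summit from the Sox2 start, with negative values upstream.

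The cultures were neural stem and progenitor cells (NSC/NPCs) taken from the SEZ, the subependymal zone, of 10-week-old mice, either wild-type (WT) or carrying a mutant Cdkn1b gene (p27KO), which encodes the cyclin-dependent kinase inhibitor p27. Proliferating cells (PRO) were neurospheres in 20 ng/ml EGF and 10 ng/ml FGF, taken after 3 days in vitro per the labels. Differentiating cells (DIFF) had spent 2 days on Matrigel with FGF and then 24 h without mitogens in 2% fetal bovine serum, so PRO and DIFF also differed in substrate and serum. Each condition had 3 libraries in WT and 2 in p27KO, from 50000 cells apiece. The p27KO mutation is in the germ line, so every cell of those cultures carried it. The sources used here do not tie libraries to separate animals, and p-values measure the spread between these libraries.

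Sox2 encodes a transcription factor of the SOX family that binds DNA through an HMG box and holds neural stem cells and embryonic stem cells in an undifferentiated state. The gene has a single coding exon and lies inside a long noncoding gene, Sox2ot, transcribed in the same direction. Its activity is controlled by elements close to the gene, among them the regulatory regions SRR1 upstream and SRR2 downstream, and by enhancers at a distance, including a cluster far downstream that is used in embryonic stem cells. SRR2 carries neighbouring sites for a SOX and a POU protein, which bind it together. The study used a promoter and an SRR2 fragment in reporters and ChIP to ask whether p27 acts on Sox2 in PRO and DIFF conditions.

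The lists held 57534 to 91801 peaks. The study states an average number of reads that it aimed for per sample, and the number behind each list is unknown. The lowest background pileup in a list, a measure that grows with reads, ranged from 2.52 to 3.72. The free-text description of p27KO libraries names WT cells, against their titles and genotype, so the targeted gene was examined first. A region over the Cdkn1b start (chromosome 6, 134919805 to 134920945) had a peak in 6 of 6 WT libraries, with fold enrichments of 8.84 to 12.3, and in 0 of 4 p27KO libraries. As a check of the labelled cells, promoters (within 3 kb of a start) of 8 of 8 neural stem and progenitor markers and 5 of 5 astrocyte markers had a peak in every library. So did 3 of 5 microglial markers, while Cx3cr1 and Ptprc had none in any library, and promoter peaks alone do not show that a gene is expressed. The other marker lists had promoter peaks for 4 to 6 of 6 neuronal, 5 to 6 of 7 oligodendrocyte, 1 to 3 of 3 ependymal, 1 to 3 of 4 endothelial and 1 to 4 of 4 pericyte and fibroblast genes per library.

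Of the 42 regions, 5 carry most of the results that follow, and their sequences are shown because the study's promoter and SRR2 fragments, or a change of rank between PRO and DIFF, fall there. All are from the plus strand of the GRCm38 reference. The first is the 300 bases just before the RefSeq start of Sox2 (chr3:34649695-34649994), and the others are 300 bases around the summit of the strongest peak. These are chr3:34653902-34654201 for +4.1 kb, chr3:34532548-34532847 for −117.3 kb, chr3:34561731-34562030 for −88.1 kb and chr3:34593345-34593644 for −56.5 kb. Capitals mark matches, on either strand, to 6 motifs searched: ACAANG for SOX factors, ATGCNNAT for POU factors, CAGCTG for an E-box, CCGGAAGT for ETS, TTTNGCGC for E2F and TGANTCA for AP-1.
Sox2 upstream: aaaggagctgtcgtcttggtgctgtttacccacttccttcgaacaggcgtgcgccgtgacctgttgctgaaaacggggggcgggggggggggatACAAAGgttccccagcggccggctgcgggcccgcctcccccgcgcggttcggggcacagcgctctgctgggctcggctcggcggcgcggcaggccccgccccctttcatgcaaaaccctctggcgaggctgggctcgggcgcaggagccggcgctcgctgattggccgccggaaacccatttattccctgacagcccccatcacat
+4.1 kb: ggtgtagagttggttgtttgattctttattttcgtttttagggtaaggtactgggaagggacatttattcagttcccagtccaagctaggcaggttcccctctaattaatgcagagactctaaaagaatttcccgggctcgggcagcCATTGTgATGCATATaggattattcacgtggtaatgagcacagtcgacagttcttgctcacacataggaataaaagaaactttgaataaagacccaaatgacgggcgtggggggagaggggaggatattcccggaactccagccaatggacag
−117.3 kb: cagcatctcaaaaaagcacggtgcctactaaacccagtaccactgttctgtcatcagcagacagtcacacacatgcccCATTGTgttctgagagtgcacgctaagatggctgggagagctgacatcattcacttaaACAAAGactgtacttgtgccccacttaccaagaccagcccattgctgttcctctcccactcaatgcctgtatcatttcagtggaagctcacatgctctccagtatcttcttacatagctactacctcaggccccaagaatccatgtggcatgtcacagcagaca
−88.1 kb: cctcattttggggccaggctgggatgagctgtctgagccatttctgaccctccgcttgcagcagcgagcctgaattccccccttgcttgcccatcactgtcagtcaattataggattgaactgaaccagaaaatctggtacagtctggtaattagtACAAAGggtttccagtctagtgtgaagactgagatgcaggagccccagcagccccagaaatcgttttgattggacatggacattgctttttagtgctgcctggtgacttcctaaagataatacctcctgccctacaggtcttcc
−56.5 kb: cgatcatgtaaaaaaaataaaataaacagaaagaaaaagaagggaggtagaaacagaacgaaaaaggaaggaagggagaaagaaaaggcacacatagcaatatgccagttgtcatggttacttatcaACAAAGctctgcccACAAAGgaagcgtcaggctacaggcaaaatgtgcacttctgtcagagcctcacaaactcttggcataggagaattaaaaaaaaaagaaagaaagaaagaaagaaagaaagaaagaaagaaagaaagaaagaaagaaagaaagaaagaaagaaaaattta

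Each of the 5 sequences held at least 1 SOX match. In the +4.1 kb sequence the SOX match began at base 148 and was followed, from base 155, by the sole POU match among the 5. This is the arrangement for which SRR2 is known, and the POU letters were written with that element in mind. No E-box, ETS, E2F or AP-1 match was found in these windows, which says that those letters are absent there and no more. Over the wider set, 21 of the 29 regions around Sox2 with a peak in at least 2 libraries held a SOX match in the summit window (72.4%), against 51.0% of all consensus regions. POU matches were in 2 of the 29 (6.90%) against 11.7% of all, and E-box matches in 5 (17.2%) against 26.0%. ETS and E2F matches were in 0 of the 29, against 1.31% and 0.848% of all, and AP-1 matches in 2 (6.90%) against 11.5%. The median GC content of the 29 was 49%, against 50%, and they held a median of 5 CpG in 300 bases, against 4. These are descriptions without a test.

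Sox2 (ENSMUSG00000074637) was the sole protein-coding gene annotated in the 400 kb. RefSeq places it at 34649995 to 34652461 on the plus strand, and GENCODE starts it at 34650405, 410 bp later. Distances here are from the RefSeq start. The surrounding Sox2ot gene runs from 34104270 to 34682619, and 24 of the 42 regions had their summit in an intron of it and in no annotated exon, while 11 were intergenic. The −90.9 kb region covered an annotated start of Sox2ot.

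Of the 42 regions, 10 had a peak in all 10 libraries, 9 in 5 to 9, 10 in 2 to 4 and 13 in a single library. The share found in all libraries, 23.8%, can be set beside 27.5% of all regions, and the share found once, 31.0%, beside 27.8%. The 13 single-library regions were weak, with fold enrichments of 2.45 to 3.35 and none above the 15.2 percentile of its list. The longest lists, p27KO PRO 1 and WT DIFF 3, held 3 of them each. The percentile is the place of a peak's fold enrichment within its own list, where 100 is the strongest.

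**Figure D1:**
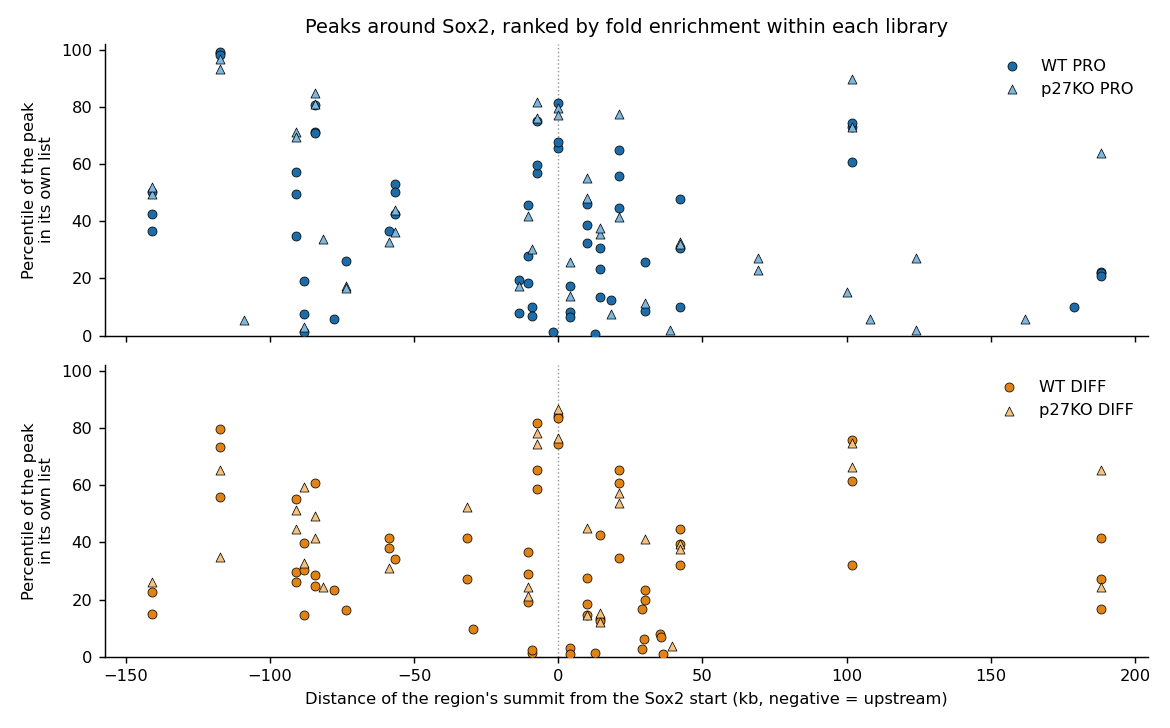
Percentile of each peak in its own list (y axis) against the distance of its region from the Sox2 start in kb (x axis), for PRO libraries above and DIFF libraries below, with circles for WT and triangles for p27KO. In PRO libraries the −117.3 kb region stood at the 93.4 to 99.1 percentiles, above the start region at 65.5 to 81.2, and in DIFF libraries it stood at 34.9 to 79.7.

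The peaks were not spread evenly. Upstream of −10 kb there were 15 regions, of which 3 were found in all libraries, and between −10 and +10 kb there were 5, with 2 in all libraries. From +10 to +90 kb there were 15 with 4 in all libraries, from +90 to +130 kb 4 with 1, and beyond +130 kb 3 with none. The best ranked peaks of these stretches were, in the same order, at −117.3 kb, the start, +21.2 kb, +101.8 kb and +188.1 kb. The longest gap between regions, 37792 bp, lay between the last region before +130 kb and the first beyond it.

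**Figure D2:**
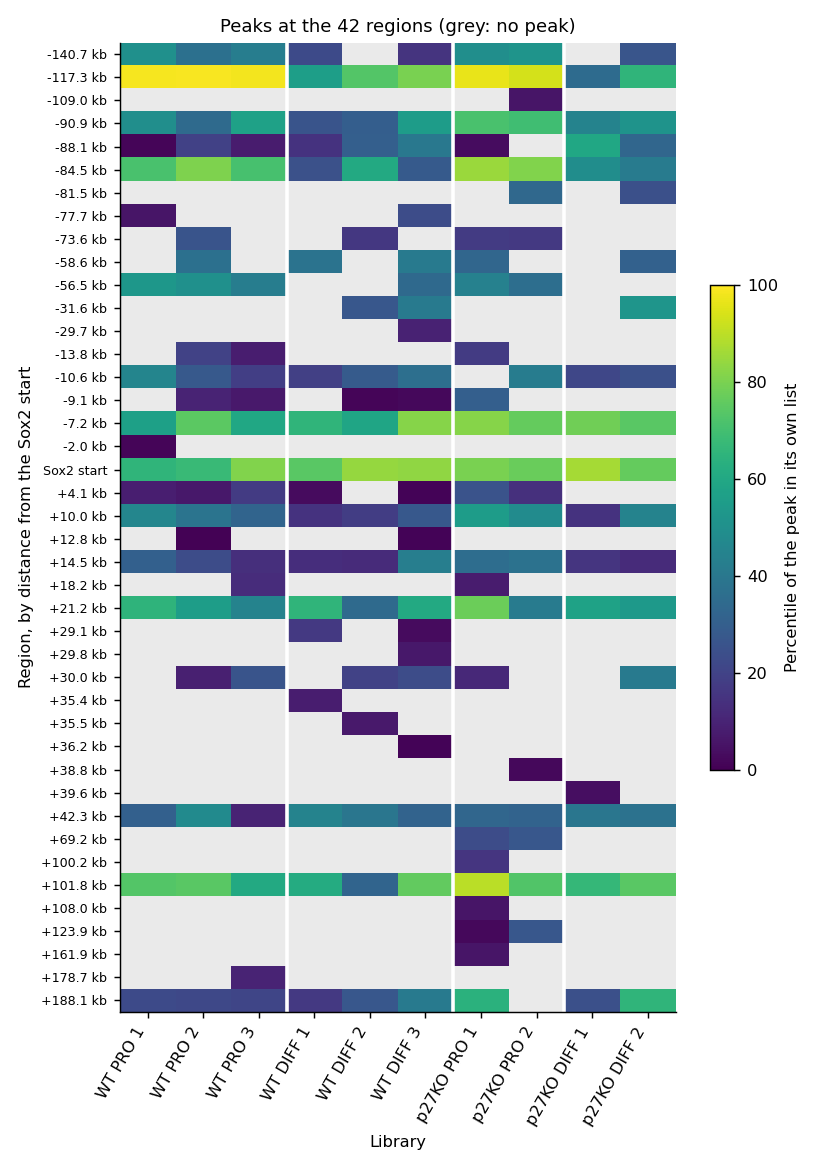
Each of the 42 regions (rows, by distance from the Sox2 start) in each of the 10 libraries (columns), coloured by the percentile of its peak within the list, with grey for no peak. Of the 42 rows, 10 are filled across all libraries and 13 in a single library.

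The start region (34648811 to 34650539) covered both annotated starts of Sox2 and had a peak in 10 of 10 libraries. Its fold enrichment was 7.65, 8.14 and 9.92 in WT PRO and 7.97, 9.67 and 10.6 in WT DIFF libraries. In p27KO it was 10.1 and 9.51 in PRO and 11.3 and 10.1 in DIFF. PRO and DIFF overlapped in WT, both p27KO DIFF values were above every WT PRO value, and the p27KO groups met at about 10.1. In WT the means of PRO and DIFF cultures were 8.57 ± 1.20 and 9.40 ± 1.31 (SD, n = 3 each), and in p27KO they were 9.79 ± 0.394 and 10.7 ± 0.9 (SD, n = 2 each). The peaks were 631 to 1500 bp wide. The pileup, which is the number of extended reads or fragments over the summit, was 64 to 146.

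For the tests, each region's fold enrichment was ranked within its list and turned into a normal score, in which regions without a peak share the mean of the bottom ranks. The score of an absent peak therefore varied with the list, from −1.91 in p27KO PRO 1 to −1.07 in WT DIFF 2 at the regions tested here. A change is a difference of mean scores between groups, tested with limma over the 70627 regions found in 5 or more libraries and called at an adjusted p below 0.05. Of the 42 regions, 19 could be tested, and the other 23 had too few peaks. None of the 19 had peaks in 1 condition alone. The start region did not pass the test. It was higher in DIFF by 0.42 ± 0.21 (SE) in WT (limma, adjusted p = 0.205) and by 0.29 ± 0.26 in p27KO (adjusted p = 0.538). Between genotypes it differed by 0.14 ± 0.24 in PRO (adjusted p = 0.997) and by 0.01 ± 0.24 in DIFF (adjusted p = 0.996), p27KO minus WT. The interaction, the change in p27KO minus that in WT, was −0.12 ± 0.34 (limma, adjusted p = 1). These standard errors limit how small a difference could be seen.

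The promoter amplicon that the study used for ChIP lay within the start peak over all its 116 bp in 10 of 10 libraries. The longer promoter reporter fragment was covered by 469 to 1191 bp of the start peak, and by 39 bp of a second, weak peak at −2.0 kb in WT PRO 1. The fragments were placed by their stated distance from the start, which may differ by some bases from the RefSeq start used here.

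The region at +4.1 kb (34653892 to 34654101) overlapped both SRR2 fragments of the study. It had a peak in 5 of 5 PRO libraries, in WT DIFF 1 and WT DIFF 3, and in 0 of 2 p27KO DIFF libraries. The peaks were weak. Their fold enrichment was 3.21, 3.04 and 3.46 in WT PRO, 3.68 and 3.35 in p27KO PRO, and 2.87 and 2.49 in the 2 WT DIFF libraries that had one. Every DIFF value was thus below every PRO value, and all 7 peaks lay at or below the 25.6 percentile of their lists. The rank test did not call it, with changes of 0.05 ± 0.21 in WT (limma, adjusted p = 0.893) and −0.29 ± 0.26 in p27KO (adjusted p = 0.540). In these scores the absent peak of WT DIFF 2 (−1.07) lay above the peaks of WT PRO 1 (−1.17) and WT PRO 2 (−1.21), whose lists were longer, so the sign of the WT change cannot be read as a gain. Ranking by p-value in place of fold enrichment called it in p27KO, with −0.85 (adjusted p = 0.0346), and turned its sign in WT to −0.30 (adjusted p = 0.296). The pileup was 23 to 38 where a peak was called and is unknown in libraries without one.

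Between PRO and DIFF, 3 of the 19 tested regions were called in WT, all of them upstream of the gene and inside Sox2ot, and among all tested regions of the series 19.2% were called. In p27KO 3 of 19 were called against 12.3% of all. They were the same 3 regions, with the same directions in both genotypes, the −117.3 kb and −56.5 kb regions lower in DIFF and the −88.1 kb region higher. Their share was near the background in both genotypes. The median change over the 19 was 0.20 in WT, against 0.03 over all tested regions, and −0.05 against 0.04 in p27KO.

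**Figure D3:**
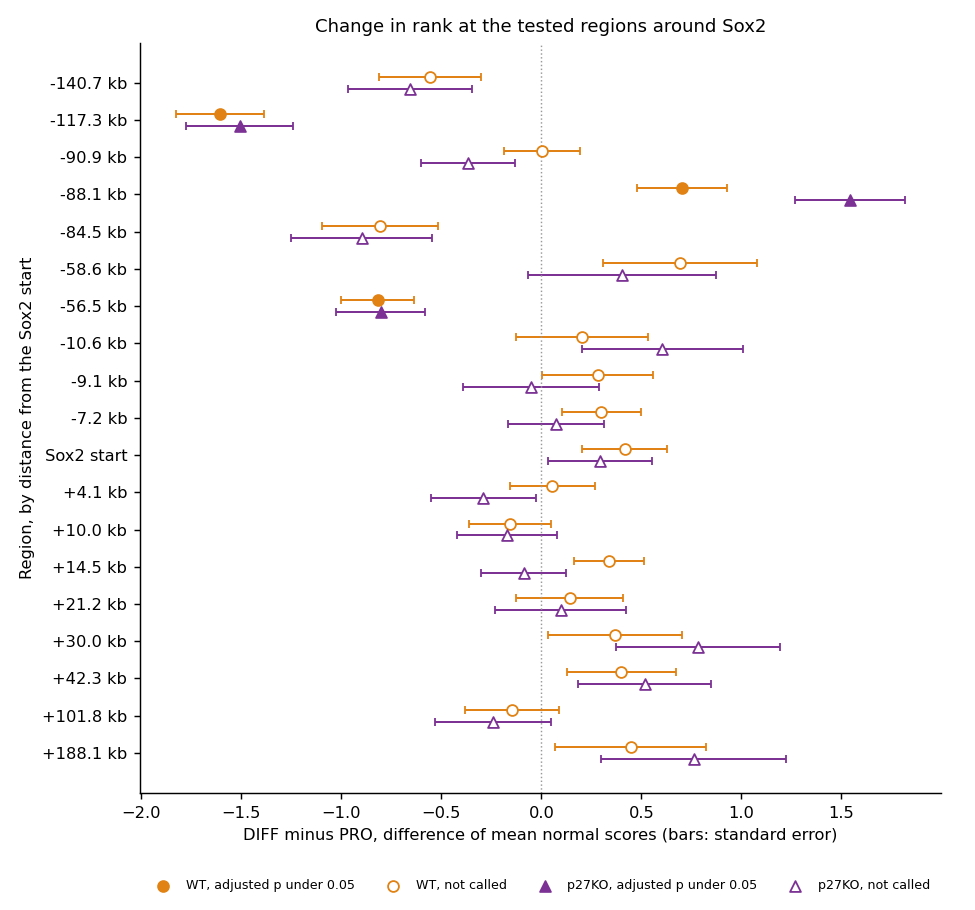
DIFF minus PRO difference of mean normal scores (x axis) at the 19 tested regions (y axis, by distance from the Sox2 start), with WT as circles, p27KO as triangles, bars for the standard error and filled symbols for an adjusted p under 0.05. The −117.3 kb region moved by −1.61 in WT and −1.51 in p27KO, and the start region by 0.42 and 0.29.

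The −117.3 kb region (34532345 to 34533040, an intron of Sox2ot) was the strongest around Sox2 in PRO cells and lost much of its rank in DIFF cells. Its fold enrichment was 16.6, 17.5 and 15.9 in WT PRO and 5.82, 7.64 and 9.52 in WT DIFF libraries. In p27KO it was 16.5 and 14.3 in PRO and 4.33 and 7.95 in DIFF. All 5 PRO libraries were above all 5 DIFF libraries. The mean percentile went from 98.6 ± 0.498 to 69.6 ± 12.3 in WT (SD, n = 3 each) and from 95.0 ± 2.27 to 50.2 ± 21.6 in p27KO (SD, n = 2 each). The change in score was −1.61 ± 0.22 in WT (limma, adjusted p = 0.00057) and −1.51 ± 0.27 in p27KO (adjusted p = 0.00436), and both calls held in every alternative run.

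The same fall was seen in other measures of the peak, which come from the same reads. The summit pileup, which also grows with reads, was 64 to 101 in PRO and 16 to 44 in DIFF libraries. The peak was 510 to 651 bp wide in PRO and 208 to 353 bp in DIFF. Set against the start region of the same library, a comparison chosen after the values were seen, its fold enrichment was 2.17, 2.15 and 1.60 times as high in WT PRO and 1.64 and 1.51 times in p27KO PRO. In DIFF it was 0.730, 0.789 and 0.903 times in WT and 0.382 and 0.790 times in p27KO. It ranked first around Sox2 in each PRO list, and the start region ranked first in each DIFF list.

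The −56.5 kb region (34593046 to 34593550) had a peak in 5 of 5 PRO libraries and, among DIFF libraries, in WT DIFF 3. Its fold enrichment was 6.09, 5.89 and 4.88 in WT PRO, 4.79 and 4.41 in p27KO PRO and 4.02 in WT DIFF 3. The sole DIFF value was below every PRO value. The score fell by 0.82 ± 0.18 in WT (limma, adjusted p = 0.00933) and by 0.80 ± 0.22 in p27KO (adjusted p = 0.0379). The p27KO call was lost with the strongest 57000 peaks of each list (−0.51, adjusted p = 0.135), with a −log10 q of at least 3 (adjusted p = 0.0692), with the p27KO groups fitted alone (adjusted p = 0.0775) and without any one of the 4 p27KO libraries or WT PRO 2, with adjusted p of 0.0538 to 0.176.

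The −88.1 kb region (34561637 to 34562011) moved the other way. Its fold enrichment was 2.75, 3.67 and 3.08 in WT PRO and 3.53, 4.13 and 4.37 in WT DIFF, so the WT groups overlapped. In p27KO it was 2.73 in PRO 1, with no peak in PRO 2, and 6.22 and 4.56 in DIFF, so these groups did not overlap. The score rose by 0.70 ± 0.23 in WT (limma, adjusted p = 0.0498) and by 1.54 ± 0.28 in p27KO (adjusted p = 0.00461). The pileup overlapped, at 18 to 32 in the PRO libraries with a peak and 18 to 34 in DIFF. The peak of WT PRO 1 scored −1.30, below the score of an absent peak in the shorter list of WT DIFF 1 (−1.15). In p27KO the peak of PRO 1 scored −1.526, below the score of an absent peak in the shorter lists of DIFF 1 (−1.255) and DIFF 2 (−1.446). Part of the rise in score in either genotype, and of the difference between them, can thus come from list length, which was not tested. The WT call sat at the threshold and was lost without any 1 of the WT libraries or of the p27KO PRO libraries, with adjusted p of 0.0615 to 0.156. It was also lost with ranks by p-value (adjusted p = 0.0898), with regions found in at least 2 libraries (adjusted p = 0.134) and with windows around summits (adjusted p = 0.0689). The difference between genotypes, 0.84 ± 0.36, had an unadjusted p of 0.0381 and an adjusted p of 1 (limma interaction). It was the sole region of the 19 with an unadjusted interaction p under 0.05, and in the whole series 0 regions were called and 2760 of 70627 had such a p.

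**Figure D4:**
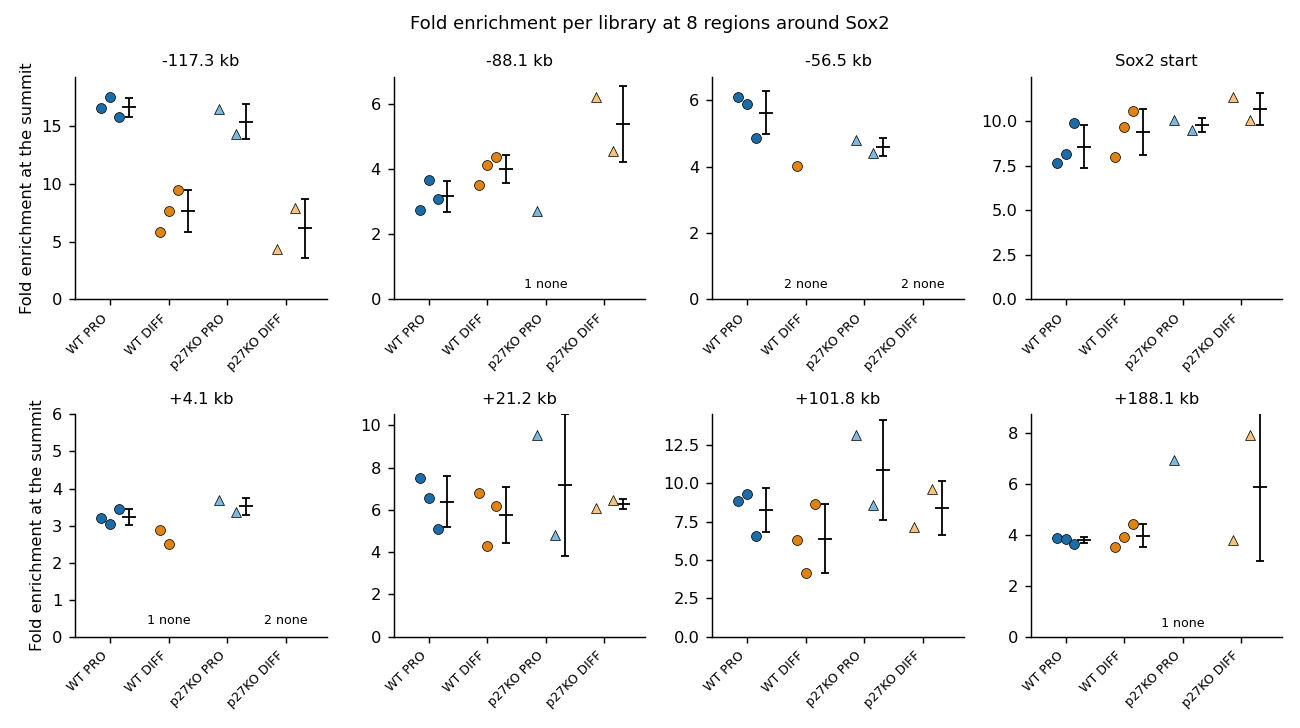
Fold enrichment at the summit (y axis, from 0) in each library at 8 regions around Sox2, by group, with the mean and SD beside groups in which every library had a peak and the number of libraries without one written at the foot. The 5 PRO libraries lie at 14.3 to 17.5 at −117.3 kb, above the DIFF libraries at 4.33 to 9.52.

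The −84.5 kb region (34565381 to 34566156), in an exon of the noncoding gene Gm42695 and inside Sox2ot, also had higher fold enrichments in PRO without being called. They were 8.55, 10.5 and 7.99 in WT PRO against 3.81, 6.07 and 3.80 in WT DIFF. In p27KO they were 11.6 and 10.3 in PRO against 5.33 and 5.29 in DIFF. The 5 PRO libraries were above the 5 DIFF libraries here too. The change in score was −0.81 ± 0.29 in WT (limma, adjusted p = 0.0750) and −0.90 ± 0.35 in p27KO (adjusted p = 0.132), which did not pass. Without WT DIFF 2 it was called in WT (−1.16, adjusted p = 0.00842) and in p27KO (−0.90, adjusted p = 0.0445), and with a peak required in all 10 libraries in WT (−1.28, adjusted p = 0.0383). The outermost region upstream, at −140.7 kb, was present in 8 of 10 libraries with changes of −0.56 ± 0.25 (adjusted p = 0.155) and −0.66 ± 0.31 (adjusted p = 0.211).

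Close to the gene, the −7.2 kb region (34642242 to 34642974) had a peak in 10 of 10 libraries. Its fold enrichment was 6.53, 9.38 and 6.49 for WT PRO and 6.80, 5.92 and 10.1 for WT DIFF. The p27KO values were 10.6 and 9.29 in PRO and 9.23 and 9.63 in DIFF. The PRO and DIFF values overlapped in both genotypes, and the changes, 0.30 ± 0.20 (limma, adjusted p = 0.329) and 0.07 ± 0.24 (adjusted p = 0.892), did not pass the test. It is 61.0% GC with 13 CpG in its summit window, and the start region is 61.7% GC with 23.

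Downstream, the region at +101.8 kb (34751368 to 34751935, intergenic) had the highest fold enrichment in 8 of 10 libraries. In WT DIFF 1 the +21.2 kb region was higher, and in WT DIFF 2 both the +21.2 kb and the +42.3 kb regions were. It had a peak in 10 of 10 libraries. Its fold enrichment was 8.86, 9.30 and 6.59 for WT PRO and 6.32, 4.17 and 8.68 for WT DIFF. For p27KO it was 13.2 and 8.57 in PRO and 7.13 and 9.66 in DIFF. PRO and DIFF overlapped in both genotypes. The changes were −0.15 ± 0.24 in WT (limma, adjusted p = 0.718) and −0.24 ± 0.29 in p27KO (adjusted p = 0.660).

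The +21.2 kb region (34670935 to 34671673, an intron of Sox2ot) was also found in 10 of 10 libraries, with fold enrichments of 4.29 to 9.56. The groups overlapped, with changes of 0.14 ± 0.27 (limma, adjusted p = 0.762) and 0.10 ± 0.33 (adjusted p = 0.894). The +188.1 kb region (34837841 to 34838319, an intron of the noncoding gene Gm21388) had a peak in 9 of 10 libraries. In WT its fold enrichment was 3.54 to 4.45. In p27KO it was 6.95 in PRO 1, absent in PRO 2, and 3.82 and 7.95 in DIFF, so the replicates of each p27KO condition disagreed. Its changes of 0.45 ± 0.38 (limma, adjusted p = 0.457) and 0.76 ± 0.46 (adjusted p = 0.341) did not pass. Without p27KO PRO 1 the latter became 1.65 (adjusted p = 0.0201), and without p27KO PRO 2 it was −0.13 (adjusted p = 0.896).

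Weak peaks fell unevenly along the downstream side, a pattern picked out after the values were seen. Between +29 and +40 kb, 8 regions found in 8 or fewer libraries held 4 PRO and 10 DIFF peaks. Most of these DIFF peaks were in WT libraries, above all in WT DIFF 3, which had a long list. Between +60 and +180 kb, 6 such regions held 8 PRO and 0 DIFF peaks, none above the 27.2 percentile. The sole WT PRO peak among them was at +178.7 kb in WT PRO 3, and the rest were in p27KO PRO libraries, most of them in p27KO PRO 1. The pooled counts thus do not show a pattern of condition shared by both genotypes, and they were not tested. Of the 6 regions, those at +69.2 kb and +123.9 kb had a peak in both p27KO PRO libraries and in no WT PRO library, a rule met by 1.66% of all regions. They had no peak in a DIFF library either, which that share does not require. Neither could be tested, since each was found in 2 libraries, and p27KO PRO 1 had the longest list.

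By presence alone, 0 of the 42 regions had a peak in all 3 WT PRO and in no WT DIFF library, against 3.12% of all regions, and 0 had the opposite pattern, against 1.34%. In p27KO, 5 of 42 (11.9%) had a peak in both PRO and in neither DIFF library, against 7.88% of all regions, and 0 the opposite, against 2.4%. The 5 were at −73.6 kb, −56.5 kb, +4.1 kb, +69.2 kb and +123.9 kb. With 2 libraries a group this rule is easier to meet than with 3, so the counts of the genotypes were not compared, and the count in p27KO dropped to 1 when each list was held to its strongest 57000 peaks.

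Between genotypes 0 of the 19 tested regions were called in PRO, where 24 regions in the whole series were (0.034%), and 0 in DIFF, where 11 were (0.0156%). At an unadjusted p under 0.05 there were 2 of 19 in PRO and 0 in DIFF. Over all 70627 tested regions there were 3906 in PRO and 3466 in DIFF. The 2 were the −117.3 kb region, with a change of −0.62 ± 0.24 (limma, adjusted p = 0.846), and the −90.9 kb region, higher by 0.54 ± 0.21 (adjusted p = 0.848). In the interaction 0 of 19 were called, as for all regions (0%). In every alternative in which they were fitted, the counts for these 3 contrasts were also 0 of the regions around Sox2.

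The number of peaks in the 400 kb was 18, 23 and 24 for WT PRO and 19, 19 and 29 for WT DIFF. The p27KO lists held 30 and 22 in PRO and 16 and 20 in DIFF. PRO and DIFF overlapped in WT and did not in p27KO, and the lists also differed in length. Per 10000 peaks of the list, the means were 2.78 ± 0.472 and 3.22 ± 0.122 in WT (SD, n = 3 each) and 2.95 ± 0.456 and 2.55 ± 0.258 in p27KO (SD, n = 2 each). DIFF exceeded PRO by 0.0206 on average over the genotypes (exact permutation test within genotype, two-sided, p = 0.967, smallest possible 0.0167), from 0.438 in WT and −0.396 in p27KO. The p27KO value minus that of WT was −0.249 (exact permutation test within condition, two-sided, p = 0.360, smallest possible 0.01), and over these 2 tests the adjusted p was 0.967 and 0.720.

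Other factors of the same cells gave a frame for the start region. Of 28 transcription factors that act with or beside SOX2 in neural progenitors, 27 had a promoter region that was tested, with a peak in 10 of 10 libraries each. A gene was represented by the tested region whose summit lay nearest to an annotated start within 3 kb, so its other starts are not covered. In WT, 1 of the 27 fell and 1 rose in DIFF, against 5.18% of all 15259 tested promoters called in either direction. The promoter of Nfia, a factor of glial differentiation, fell by 0.68 ± 0.19 (limma, adjusted p = 0.0268), and that of its relative Nfib rose by 0.97 ± 0.24 (adjusted p = 0.0168). In p27KO 0 of 27 were called, against 2.42%, with values of −0.70 for Nfia (limma, adjusted p = 0.0756) and 0.94 for Nfib (adjusted p = 0.0642). The closest relatives of Sox2 among them, Sox1 and Sox3, had changes of 0.36 ± 0.17 (limma, adjusted p = 0.183) and 0.16 ± 0.16 (adjusted p = 0.538) in WT, and did not pass in either genotype. The median change of the 27 was 0.16 in WT, against 0.12 over all promoters, and 0.12 against 0.14 in p27KO.

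Of 16 pluripotency factors that work with Sox2 in embryonic stem cells, 9 were tested and 0 were called in any contrast. Between PRO and DIFF, 5.18% of all tested promoters were called in WT and 2.42% in p27KO, so 0 of 9 is near that share. Promoters of Pou5f1, Zfp42 and Dppa4 had a peak in 0 of 10 libraries and that of Nanog in 1, while Klf4 and Esrrb had one in 10 of 10. Over the 10 libraries, the 5 promoters whose scores followed that of the Sox2 start most closely were those of Stk4 (Pearson r = 0.962), Pfdn4 (0.959), Dtymk (0.950), Gm13277 (0.949) and Atp11a (0.941). They were picked from 15259 promoters, 70 of which had r over 0.9, with a median of 0.265. All scores of a library share its list and its depth, so these values are a description.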

How the data were processed

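ATAC-seq was made by the authors from 50000 cells per library, without pooling of replicates. Per the study's methods, reads were clipped (Cutadapt), trimmed (Trimmomatic), mapped to GRCm38 (Bowtie2), marked for duplicates (Picard) and passed to MACS2 for narrow peaks, with no model and an FDR of 0.05. Versions, read shift and extension are not given in the sources used here. The deposited fold enrichment is a ratio of summit pileup to local background, beside the −log10 p-value and −log10 q-value that the authors' caller gave, and the deposited positions are in bp, given here from 1. Both pileup and background were solved from the ratio and p-value. Among peaks of a list with a −log10 p under 60, at least 99.9773% gave a whole pileup, within 0.001 of the −log10 p. Pileups around Sox2 were solved without that limit and with a wider tolerance. Some of these peaks lay beyond the checked range, such as the start peak of WT DIFF 3 at a −log10 p of 98.4. Others were PRO peaks at −117.3 kb, among them that of WT PRO 2 at 94.4.

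Peaks of all lists were merged (1 bp). A longer list can come from more reads, and no peak means none called at that depth. Depth cannot be given as reads per library. Normal scores of within-list ranks were compared with limma 3.58.1 in R 4.3.3 (1 mean per group, shared spread, Benjamini-Hochberg over 70627 regions), after a test on simulated data. They are not log folds of signal. The study's DiffBind needs alignments, not used here. Other values came from Python 3 with SciPy. Annotation was GENCODE M21 and RefSeq, and sequences were read from the GRCm38 reference.

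The regions described in full were the start, those over the study's promoter and SRR2 fragments, every called region and the best ranked of each distance stretch. The −84.5, −7.2, −140.7, −90.9, +69.2 and +123.9 kb regions and the genes given from the lists were named after their values were seen. The window, lists and motifs were chosen with earlier results of these data known. Alternatives were ranking by p-value, peaks in at least 2 or in all 10 libraries, the strongest 57000 peaks, a −log10 q of at least 3, windows of 100 bp either side of summits, the compared groups alone, replicate blocks, and each library left out.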

Additional observations from a re-analysis of the deposited data

How the results depend on the processing

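At −117.3 kb both calls held in every alternative, as did those at −56.5 kb in WT and −88.1 kb in p27KO wherever the region was tested. In the interaction and between genotypes 0 regions around Sox2 were called in any. In p27KO the regions called went from 3 to 1 when a peak was required in all 10 libraries, since the −56.5 and −88.1 kb regions then dropped out of the test. Leaving out 1 WT library gave 2 to 3 called in WT and 2 to 4 in p27KO. The −84.5 kb region was among them in both genotypes without WT DIFF 2. Without p27KO PRO 2, the −10.6 kb region in p27KO changed by 1.35. The sole p27KO PRO library left, PRO 1, had no peak there, against a fold enrichment of 4.89 in PRO 2. The peaks per 10000, DIFF minus PRO, turned to −3.67 peaks when not divided by list length and to −20.7 bases per Mb as covered length, and ranged from −0.14 to 0.182 without 1 library (without p27KO PRO 2 and p27KO PRO 1). Ranked by p-value, the start region differed between genotypes by −0.005 in PRO and −0.054 in DIFF, and the +4.1 kb region changed by −0.30 in WT, as it did by −0.105 with regions found in at least 2 libraries. The cause was not tested.

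Without 1 library, values that changed sign and were called in no such fit ranged from −0.345 to 0.095 (start, interaction), −0.209 to 0.23 (start, p27KO minus WT in DIFF), −0.14 to 0.231 (+4.1 kb, WT), −0.035 to 0.259 and −0.393 to 0.584 (+21.2 kb, WT and p27KO), and −0.265 to 0.043 and −0.569 to 0.086 (+101.8 kb, WT and p27KO). The +188.1 kb value in p27KO ranged from −0.127 without p27KO PRO 2 to 1.65 without p27KO PRO 1, where it was called (adjusted p = 0.0201). By presence, the strongest 57000 peaks gave 2 regions opened in WT, 1 closed in p27KO and 1 opened in p27KO, and windows around summits gave 1 opened in p27KO. Without 1 library there were 0 to 1 closed in WT (1 without WT PRO 1 or WT DIFF 3), 0 to 1 opened in WT (1 without WT DIFF 1 or WT DIFF 2), 5 to 11 closed in p27KO (11 without p27KO PRO 2) and 0 to 2 opened in p27KO (2 without p27KO PRO 1, and 1 without any other p27KO library). Where 1 library was left in a p27KO group, it was assumed to vary like the others.

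Same-numbered PRO and DIFF libraries deviated together with r of 0.0575, 0.0647 and 0.0328 in WT, where each correlated best with its own number. In p27KO r was −0.141. With 2 libraries a group these deviations mirror each other, so the crossed numbers had to give 0.141. The check thus cannot settle pairing in p27KO, and the numbers were not taken as pairs. With a replicate block the regions called were 4 in WT, with the −84.5 kb region added (adjusted p = 0.0469), and 2 in p27KO (5 blocks) or 2 and 2 (3 blocks), with the −56.5 kb call in p27KO lost at an adjusted p of 0.0909 and 0.0652 and the −88.1 kb call in WT lost with 3 blocks at 0.078. With the p27KO numbers crossed, chosen after seeing the data, 3 and 2 were called, in WT with the −84.5 kb region (adjusted p = 0.0404) in place of the −88.1 kb region (0.0569).

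Over all regions, p27KO calls went from 8695 to 2398 with a peak in all 10 libraries and to 4122 to 5255 without 1 p27KO library, and WT calls from 13568 to 4879 with a peak in all 10. Calls between genotypes ranged from 0 to 71 in PRO and 0 to 30 in DIFF, and the interaction from 0 to 16. Reads per library are unknown, so a weak peak such as that at +4.1 kb may be missed for depth.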
